A study of Mus musculus with 12 samples.

Results

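The 47 genes described here were chosen because their loci, the stretch of chromosome that each gene is transcribed from, are very long, about 200 kb or more. Measured change was not a criterion, but earlier results of these data were known when the list was made, so it is no blind sample of such genes. Probe sets on the array were found for 46 of them, and Immp2l had none. The loci of these 46 genes spanned 205 to 1612 kb in RefSeq's mouse annotation (GRCm38.p6), with a median of 470 kb, Fhit being the longest and Med13l the shortest. The list holds only some of the genes of this length, since 454 of the genes tested, or 3.78% of those with a known length, had a locus of 200 kb or more, 43 of them on the list and 411 not.

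A gene's locus is transcribed from end to end, introns included, before its message is spliced, so the polymerase that copies a very long gene needs hours to reach its end. Such genes consist almost entirely of intron, and their messages are often no longer than those of short genes. They are known to depend on factors that keep the polymerase moving and on topoisomerases, which relieve the twist that builds up in the DNA ahead of it. Several of the genes, among them Fhit and Wwox, lie at common fragile sites, where chromosomes tend to break when replication is slowed.

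Gene expression had been measured in BV-2 microglia, an immortalized line of mouse microglia, on 12 Affymetrix 430 2.0 arrays. The cells received 50 µM luteolin for 24 h, were left untreated as control, or received 50 µM luteolin together with 50 ng/ml LPS or 50 ng/ml LPS alone, also for 24 h, with 3 arrays for each of the 4 conditions. Luteolin is a plant flavonoid, which was dissolved in DMSO, and LPS, from the outer membrane of bacteria, activates microglia through Toll-like receptor 4. The replicates came from 3 independent stimulation experiments of this 1 cell line. The labels' extraction text names another cell line, while their treatment text names BV-2, which was used. Of 10 markers of microglia and macrophages, 8 reached a mean signal of 50, and the summed signal of the 10 lay between 37550 and 51340. The sum rests mostly on bright genes such as Cd68 and hides single markers. Aif1 was 59.8 with luteolin + LPS against 224 with LPS, and Spi1 went the other way (1708 against 1175). The summed signals of 5 neuronal, 4 astrocyte, 3 oligodendrocyte and 5 fibroblast markers lay between 134.2 and 320.1. Most of the neuronal sum came from Rbfox3, at 193 to 214.

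The values are RMA intensities, in which every array had been given the same distribution, and a shift common to most genes would not show in them. Signals below are these intensities for the gene's brightest probe set, and differences are on the log2 scale, with luteolin over its own reference, the control or LPS. They can be compared between arrays for 1 gene but not between genes. A gene was tested if its geometric mean signal reached 50 in at least 1 condition, and 12071 genes were. Of the 46 long genes with a probe set, 43 were tested, while Dpyd, Tnik and Pard3 stayed under 50 in all 4 conditions. Arhgap15 passed only through its signal in control microglia, and the other 42 reached a mean of 50 over all arrays. A gene was called when limma's adjusted p over all 12071 genes was under 0.05, and limma's standard error is given as SE. The luteolin main effect is the mean of the difference in resting cells and the difference in LPS-treated cells.

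Luteolin was accompanied by lower signals of most of these genes, in resting as well as in LPS-treated microglia. Over all 46 genes with a probe set, tested or not, the median difference was -0.31 between luteolin and control and -0.36 between luteolin + LPS and LPS, with 39 and 37 of the 46 below 0. For the 42 genes that reached 50 on average over all arrays, the median luteolin main effect was -0.35, and 37 of them lay below 0. Of all genes tested, 49% lay below 0 in the main effect, 52.9% in resting and 47.1% in LPS-treated cells. The 6592 other genes with signals in the range of the long genes (135.8 to 1381, the members' 10th to 90th percentile) had a median main effect of -0.02, and 53.3% of them lay below 0. The differences of the long genes were small, from -0.91 for Arhgap15 to 0.10 for Plcb1.

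Taken over both states, 5 of the 42 genes with a mean of 50 over all arrays fell and 0 rose, where 1.92% of all genes fell and 1.16% rose. They were Cdkal1, Vps13b, Tbc1d5, Uvrag and Dock2. Arhgap15 was called too, which makes 6 of the 43 genes tested, but it passed the signal minimum only through control, and its call was lost with arrays under 50 set to 50 (adjusted p = 0.111). Arrays of the same replicate number deviated together. With the replicate number as a block in the fit, 19 of the 42 genes were called lower (20 of 43 with Arhgap15) and 0 higher. Of all genes, 6.22% were called lower and 3.89% higher in this fit. The 14 added genes were Exoc4, Lrba, Nbas, Wdr7, Trappc9, Wwox, Fhit, Smyd3, Supt3, Med13l, Atxn1, Dock10, Gphn and Utrn. The count of 6 without a block was 3, 3, 2, 3 and 3 without control replicate 2, luteolin replicate 2, luteolin replicate 3, LPS replicate 2 or luteolin + LPS replicate 2, and 4 to 8 without any of the other 7 arrays. It was 3 when all probe sets of a gene were averaged and 15 with array weights. The shares of all genes called in these alternative fits are not given.

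Within a single state limma called 0 of these genes without the block. In resting cells 0 of 43 were called lower (0% of all genes), with 10 at an unadjusted p under 0.05 (9.09% of all genes), and 1, Supt3, with the block (0.199% of all genes). In LPS-treated cells it called 0 lower (0.356% of all genes), with 12 at an unadjusted p under 0.05 (14.9% of all genes). With the block 8 were lower in LPS-treated cells (2.84% of all genes), namely Wwox, Cdkal1, Exoc4, Tbc1d5, Uvrag, Tcf12, Atxn1 and Dock2. Array weights gave 9 and 4 calls in resting and LPS-treated cells, for which the share of all genes called is not given. In LPS-treated cells 1 gene was called with no signal filter and with log2 of the signal plus 16. The same count was found without control replicate 1, LPS replicate 1, or luteolin + LPS replicate 1 or 3. For these fits too the shares of all genes called are not given, so the counts do not set the listed genes apart. All 3 luteolin arrays lay below all 3 control arrays for 14 of the 43 genes (13 of the 42 without Arhgap15), against 11.3% of all genes, and all 3 luteolin + LPS arrays lay below all 3 LPS arrays for 11, against 8.04%. In both states this held for 8 genes (3.21% of all genes), namely Fhit, Cdkal1, Exoc4, Vps13b, Tbc1d5, Uvrag, Dock2 and Dock10. No gene of the 43 lay above on all 3 arrays in either state, where 8.29% of all genes did in resting and 8.04% in LPS-treated cells. When arrays of the same replicate number were compared, 22 of the 43 genes were lower in 6 of 6 pairs, as were 10.2% of all genes.

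**Figure D1:**
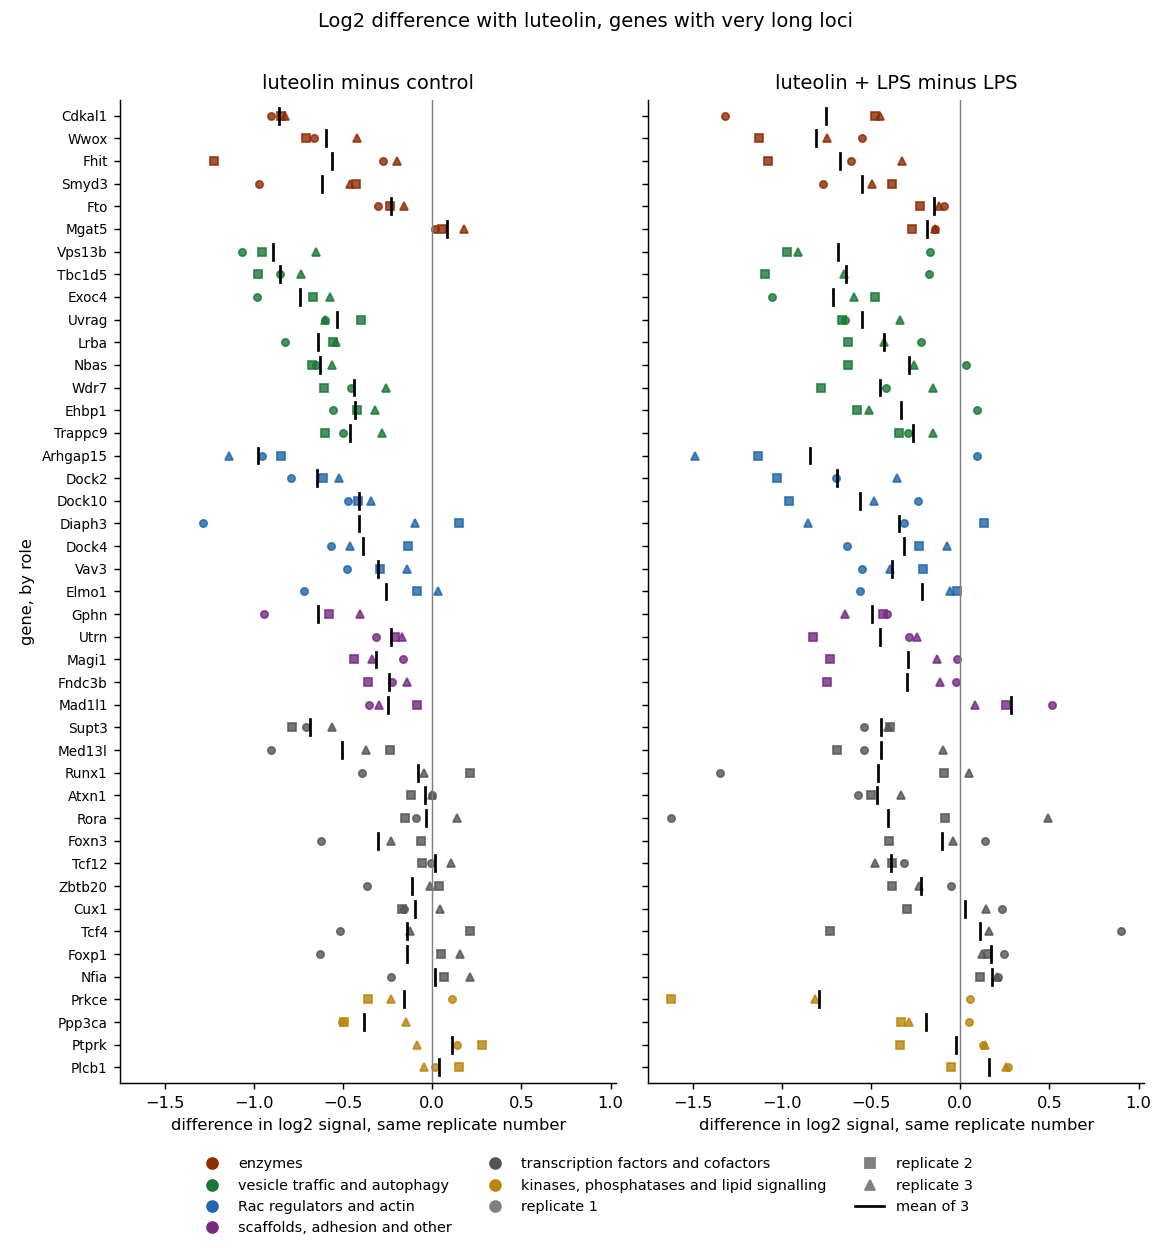
Each row is 1 of the 43 tested long genes, grouped and coloured by role, and each point is the difference in log2 signal between 2 arrays of the same replicate number, luteolin minus control on the left and luteolin + LPS minus LPS on the right. Black ticks are the means of the 3 replicates, and most of them lie left of 0, with 22 genes below 0 in 6 of 6 pairs.

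The 9 genes of vesicle traffic and autophagy all lay below 0 in both states, with a median main effect of -0.53. Of these, 3 fell without the block and 8 with it. Vps13b, a lipid transfer protein of the Golgi apparatus that lies in a locus of 560 kb, had signals of 574, 404 and 439 on the luteolin arrays of replicates 1 to 3, against 1202, 782 and 690.0 on the control arrays. It had 549, 400.2 and 387 on the luteolin + LPS arrays, against 618, 785 and 728 on the LPS arrays. The luteolin arrays were the lower ones in both states, with no overlap between the groups. Its main effect was -0.79 (SE 0.16, adjusted p = 0.0273), or 1.73-fold lower. The call of Vps13b was lost in 6 of the 12 fits that left out a single array, with an adjusted p of up to 0.0839.

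Tbc1d5, which encodes a GTPase-activating protein for Rab proteins of late endosomes (448 kb), had signals of 618, 603.5 and 597 on the luteolin arrays, against 1115, 1188 and 993 on the control arrays. With LPS it had 642, 454 and 484.5 on the luteolin + LPS arrays, against 724, 969 and 761 on the LPS arrays. The groups were apart in both states, most widely in resting cells. Tbc1d5 had a main effect of -0.75 (SE 0.11, adjusted p = 0.0112) and, averaged over its 4 probe sets, -0.26 (adjusted p = 0.0606). Uvrag, a partner of Beclin in autophagy and endosome maturation (254 kb), had 1249, 1262 and 1052 with luteolin, against 1898, 1662 and 1598 in control. It had 1301, 986 and 1175 with luteolin + LPS, against 2039, 1562 and 1484 with LPS. The groups did not overlap, and the main effect was -0.54 (SE 0.11, adjusted p = 0.0276). The call of Uvrag was lost in 8 of the 12 fits that left out a single array, with an adjusted p of up to 0.0839.

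The other 6 genes of this group did not pass without the block. Exoc4, a subunit of the exocyst that tethers secretory vesicles to the plasma membrane (725 kb), had signals of 659, 461 and 449 with luteolin, against 1302, 733 and 668 in control. It had 577, 487 and 414 with luteolin + LPS, against 1201, 679 and 626 with LPS. Replicate 1 was the highest array in each of the 4 conditions, and the groups did not overlap. The main effect was -0.73 (SE 0.21, adjusted p = 0.0957, 0.00469 with the block). Lrba, which guides vesicles of immune cells away from the lysosome, had a main effect of -0.53 (adjusted p = 0.0721, 0.00613 with the block). Nbas, a tether of vesicles that return from the Golgi to the endoplasmic reticulum, had one of -0.46 (adjusted p = 0.0771, 0.0246 with the block). Wdr7 and Trappc9 had main effects of -0.45 and -0.36 and were called with the block only, and Ehbp1 (-0.38) in neither fit.

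Among the enzymes, all 6 tested lay below 0 in the main effect, with a median of -0.60, 1 of them being called without and 4 with the block. Cdkal1, a methylthiotransferase that modifies a transfer RNA for lysine (664 kb), had signals of 195, 189 and 163 with luteolin, against 365, 341 and 290 in control. It had 188, 203 and 195 with luteolin + LPS, against 470 (replicate 1), 284 and 266 with LPS. Each luteolin array was lower than each array without it, and the main effect was -0.81 (SE 0.14, adjusted p = 0.0173), or 1.75-fold lower. The adjusted p was 0.0591 without luteolin replicate 3.

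Wwox, an oxidoreductase encoded by 913 kb, had signals of 248, 183 and 146 with luteolin, against 392, 299.5 and 196 in control. It had 231, 137 and 135 with luteolin + LPS, against 338, 300.5 and 227 with LPS. The groups overlapped through replicate 1, the brightest array of each, while luteolin was lower in 6 of 6 pairs. The main effect was -0.70 (SE 0.21, adjusted p = 0.104, 0.00521 with the block). Fhit, a hydrolase of diadenosine triphosphate and the longest of these loci (1612 kb), had 62.0, 68.9 and 69.2 with luteolin, against 75, 161 and 79.3 in control, and 37.7, 43.3 and 46.8 with luteolin + LPS, against 57.5, 91.4 and 58.7 with LPS. These signals lie close to the minimum of 50, and the main effect of -0.62 (adjusted p = 0.111, 0.0303 with the block) was -0.50 with arrays under 50 set to 50. Smyd3, a lysine methyltransferase, had a main effect of -0.59 (adjusted p = 0.171, 0.00939 with the block). Fto, an RNA demethylase, and Mgat5, an enzyme of N-glycan branching, had main effects of -0.19 and -0.05 and were called in neither fit.

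Regulators of Rac, a driver of actin remodelling, and the formin Diaph3 lay below 0 in 7 of 7 cases, with a median of -0.38. Without the block 2 of them fell, Dock2 and Arhgap15. Arhgap15 passed the signal minimum only through control, so its call and its place among the 7 lend no support. Dock2, the exchange factor that activates Rac in leukocytes (557 kb), had signals of 1360 (replicate 1), 1394 and 1445 with luteolin, against 2356, 2135 and 2078 in control. It had 1053, 826 and 1101 with luteolin + LPS, against 1709, 1683 and 1407 with LPS. The groups were far apart in both states, and LPS lay below control too. This gave a main effect of -0.67 (SE 0.09, adjusted p = 0.00994), or 1.59-fold lower. A dimmer Dock2 probe set with signals of 57.7 to 60.7 had a main effect of 0.01, so that the result rests on the brighter one.

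Arhgap15, which switches Rac off (647 kb), was close to background. It had 31.5, 41.2 and 40.9 with luteolin, against 61.0, 74.2 and 90.2 in control, and 21.0, 18.5 and 15.4 with luteolin + LPS, against 19.7, 40.6 and 43.2 with LPS. The control arrays were the only ones over 50, and the 2 groups with LPS overlapped. Its main effect of -0.91 (SE 0.20, adjusted p = 0.0363) was -0.28 (adjusted p = 0.111) with arrays under 50 set to 50, and its call was lost in 9 of the 12 fits with a single array left out (up to 0.0881). Dock10, an exchange factor of Cdc42 and Rac, had a main effect of -0.49 (adjusted p = 0.103, 0.0176 with the block). Dock4, Vav3, Elmo1 and Diaph3 were called in neither fit, with main effects of -0.35, -0.34, -0.24 and -0.38.

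**Figure D2:**
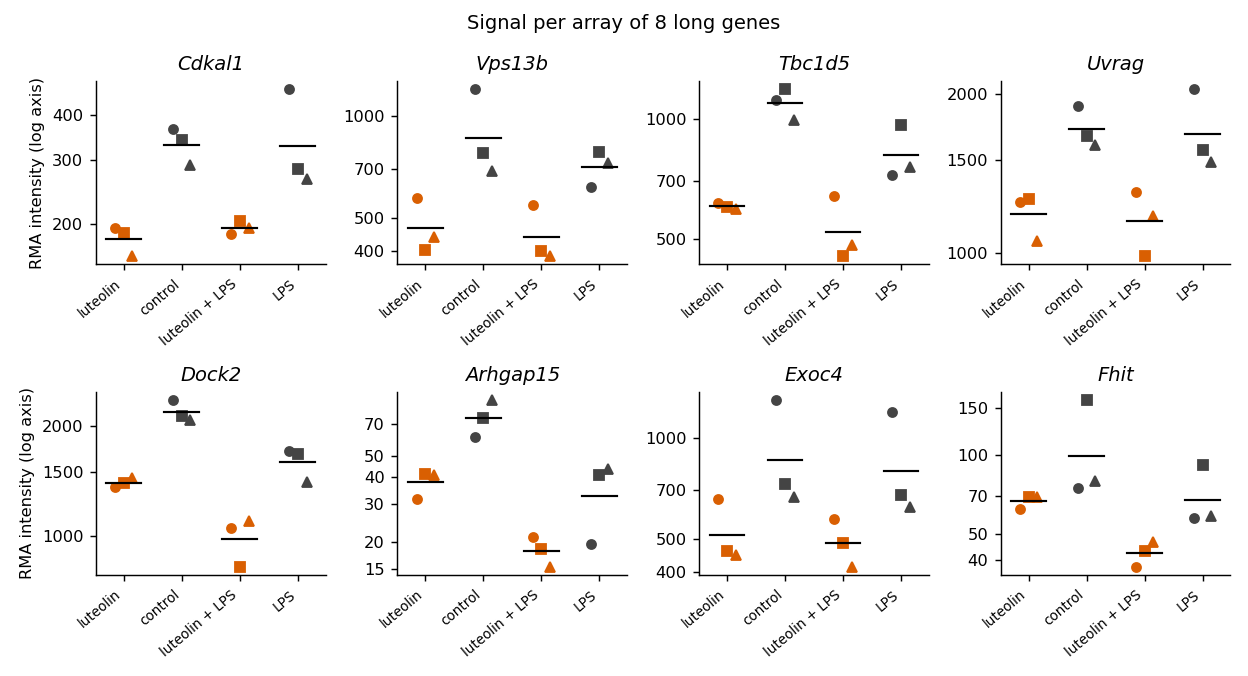
RMA intensity on a log axis for 8 long genes on each array, with luteolin arrays in orange and arrays without luteolin in grey. Symbols mark the replicate number (circle 1, square 2, triangle 3) and bars the geometric mean of 3 arrays. For 7 of the 8 genes the luteolin arrays lie below their reference in both states, while Arhgap15 overlaps with LPS.

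Of 12 transcription factors and cofactors, 10 lay below 0 in the main effect, with a median of -0.20, and 0 were called without the block (3 with it). Supt3, a subunit of the SAGA coactivator (342 kb), had signals of 624, 353 and 384 with luteolin, against 1018, 609 and 567.5 in control. It had 611, 442.5 and 353 with luteolin + LPS, against 889, 581 and 467 with LPS. Replicate 1 was the brightest throughout, so the groups overlapped, although luteolin was lower in 6 of 6 pairs. The main effect was -0.57 (SE 0.23, adjusted p = 0.205, 0.00562 with the block). Med13l, of the kinase module of Mediator, had a main effect of -0.47 (adjusted p = 0.206, 0.0365 with the block), and Atxn1, a transcriptional repressor, one of -0.25 (adjusted p = 0.132, 0.0466 with the block). The factors of haematopoietic and neural development Runx1, Rora, Tcf12, Zbtb20 and Foxn3 had main effects of -0.27 to -0.17, which were called in neither fit. Of these, Tcf12 was called lower with the block in LPS-treated cells (adjusted p = 0.0437). Cux1, Tcf4, Foxp1 and Nfia lay between -0.03 and 0.10.

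Of 4 kinases, phosphatases and lipid signalling genes, 2 lay below 0, with a median of -0.12, and 0 were called in either fit. Prkce, protein kinase C epsilon, had a main effect of -0.48 (SE 0.21, adjusted p = 0.243), with signals of 152, 155 and 114.5 with luteolin against 141, 199 and 134 in control, and 129, 91.2 and 139 with luteolin + LPS against 124, 281 and 245 with LPS. Its groups overlapped in both states. Ppp3ca, the catalytic subunit of calcineurin, had a main effect of -0.29 (adjusted p = 0.327, 0.0528 with the block). The receptor phosphatase Ptprk (0.04) and the phospholipase Plcb1 (0.10) lay above 0.

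Of 5 scaffold, adhesion and other genes, 4 lay below 0, with a median of -0.30, and 2 were called with the block. Gphn, the scaffold gephyrin that also makes the molybdenum cofactor (467 kb), had signals of 836, 549.5 and 579 with luteolin, against 1608, 822 and 767 in control. It had 901, 716 and 581 with luteolin + LPS, against 1196, 968 and 908 with LPS. The groups were apart in LPS-treated cells and overlapped in resting cells. The main effect was -0.57 (SE 0.20, adjusted p = 0.150, 0.0119 with the block). Utrn, the cytoskeletal linker utrophin, had a main effect of -0.34 (adjusted p = 0.241, 0.0381 with the block). Magi1 and Fndc3b had main effects of -0.30 and -0.27, and Mad1l1, of the spindle checkpoint, one of 0.02, with differences of -0.25 in resting and 0.29 in LPS-treated cells.

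Every gene of the list called in the main effect was lower, so a shared direction among called genes is given by their choice. The promoters of the 3 called genes with a single promoter in RefSeq's table (GRCm38.p6) are shown. Each runs from 250 bases before the start to 50 after it, on the minus strand, with GC boxes (GGGCGG on either strand) in capitals.
Cdkal1, chr13:29855624-29855923: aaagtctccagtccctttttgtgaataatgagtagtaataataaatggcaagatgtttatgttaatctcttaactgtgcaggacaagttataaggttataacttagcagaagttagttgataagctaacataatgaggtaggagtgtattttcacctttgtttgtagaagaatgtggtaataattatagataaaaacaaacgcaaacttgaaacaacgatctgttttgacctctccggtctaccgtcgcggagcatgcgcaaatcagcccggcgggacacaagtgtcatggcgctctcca
Uvrag, chr7:99141095-99141394: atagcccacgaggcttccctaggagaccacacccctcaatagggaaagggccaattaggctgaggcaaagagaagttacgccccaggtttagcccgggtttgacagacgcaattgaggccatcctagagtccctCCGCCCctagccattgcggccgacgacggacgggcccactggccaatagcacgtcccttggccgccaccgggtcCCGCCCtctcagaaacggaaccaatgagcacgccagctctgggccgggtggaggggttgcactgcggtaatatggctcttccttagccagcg
Dock2, chr11:34783856-34784155: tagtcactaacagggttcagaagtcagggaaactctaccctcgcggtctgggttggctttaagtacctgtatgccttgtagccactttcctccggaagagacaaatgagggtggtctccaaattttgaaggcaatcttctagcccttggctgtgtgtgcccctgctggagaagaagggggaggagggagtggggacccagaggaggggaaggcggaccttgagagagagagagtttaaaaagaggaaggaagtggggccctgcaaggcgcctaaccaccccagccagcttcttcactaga
Uvrag held 2 GC boxes, and Cdkal1 and Dock2 held 0. CG dinucleotides numbered 10 in Cdkal1, 19 in Uvrag and 5 in Dock2. Promoters were found for 37 of the 47 genes, 52 promoters in all. Of these, 50.0% held a GC box, against 35.7% of all 32851 promoters in the table. TATAAA on either strand was held by 7.69%, against 13.6%. The other 2 motifs counted were nearer to all promoters, CCAAT at 40.4% against 37.4% and CACGTG at 9.62% against 7.15%. The median number of CG dinucleotides was 18 in the promoters of the long genes and 7 in all promoters, and all promoters include genes not tested here. A match of letters is no measured site.

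Most of the genes have several probe sets, and the brightest was used above. The 46 genes had 172 probe sets, and 107 of them had a mean signal of at least 50 over all arrays. Of these 107, 80 lay below 0 in the luteolin main effect, with a median of -0.22, and of the 65 dimmer ones 42, with a median of -0.06. When probe sets were tested singly, 6 fell (1.24% of all probe sets) and 1 rose, and with the block 24 were lower (4.78% of all probe sets) and 1 higher. The share of all probe sets that rose is not given, while among genes it was 1.16%, and 3.89% with the block. The 1 that rose was a dimmer probe set of Tcf12, with a main effect of 0.46 (adjusted p = 0.0242). It had 232 with luteolin and 174 in control, and 163 with luteolin + LPS and 116 with LPS.

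Where genes had 2 or more probe sets with a mean of at least 50, these often shared a direction, as they did in 15 of 26 genes. The 4 of Exoc4 lay between -0.73 and -0.35, the 3 of Gphn between -0.57 and -0.55, the 4 of Wwox between -0.70 and -0.21 and the 3 of Prkce between -0.51 and -0.44. In 11 genes they differed in sign, most widely in Runx1 (-0.33 to 0.42), Dock2 (-0.67 to 0.01) and Tcf12 (-0.19 to 0.46). Which transcript each probe set reads was not tested.

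**Figure D3:**
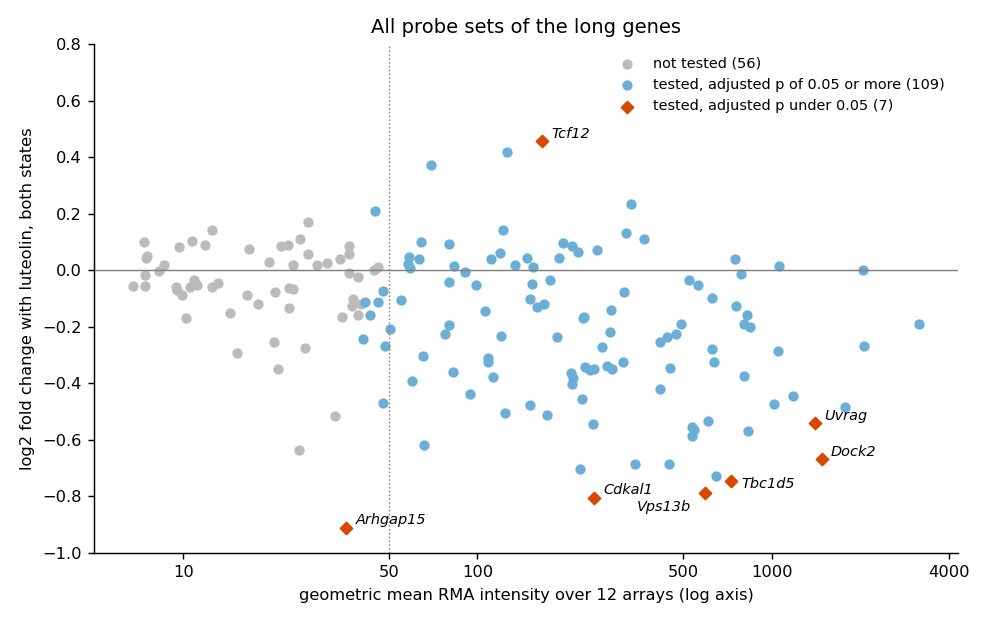
All 172 probe sets of the long genes, with the geometric mean intensity over 12 arrays on a log axis and the luteolin main effect in log2 on the other. Grey points were not tested, blue points were tested and not called, and orange diamonds were called, 6 below and 1 (Tcf12) above 0. The dotted line marks an intensity of 50, and most of the dimmer points lie closer to 0.

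The median difference was lower with each step in locus length among the genes tested. The median luteolin main effect was 0.04 in the 3189 genes under 10 kb, 0.02 in those of 10 to 25 kb, and 0.00 in those of 25 to 50 kb. It was -0.04 from 50 to 100 kb, -0.10 from 100 to 200 kb and -0.19 in the 454 genes of 200 kb or more, of which 69.8% lay below 0. With no signal filter the median of this longest class was -0.016. In that longest class 10.4% of the genes fell and 0% rose, and in the shortest 1.66% fell and 1.29% rose. The medians of the 3 replicates in the longest class were -0.16, -0.22 and -0.15.

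The 411 other genes of 200 kb or more had a median of -0.16, and the 234 of them with signals in the range of the listed genes one of -0.28, against -0.35 in the 42 listed genes. The difference between these medians was not tested. Among genes of 200 kb or more, those in the dimmest of 3 equal classes of signal had a median of -0.01, those in the middle class -0.30 and those in the brightest -0.28. Across 12018 genes, which are not independent replicates, log10 locus length and main effect had an r of -0.17 and a rank correlation of -0.20, and within the 43 listed genes the rank correlation was also -0.20. Around the length limit, the shortest listed loci, Med13l (205 kb), Runx1 (225 kb) and Uvrag (254 kb), had main effects of -0.47, -0.27 and -0.54. The longest loci just under it, Atp9b, Sergef and Clec16a (199.9, 199.7 and 199.6 kb), had -0.07, -0.33 and 0.06.

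**Figure D4:**
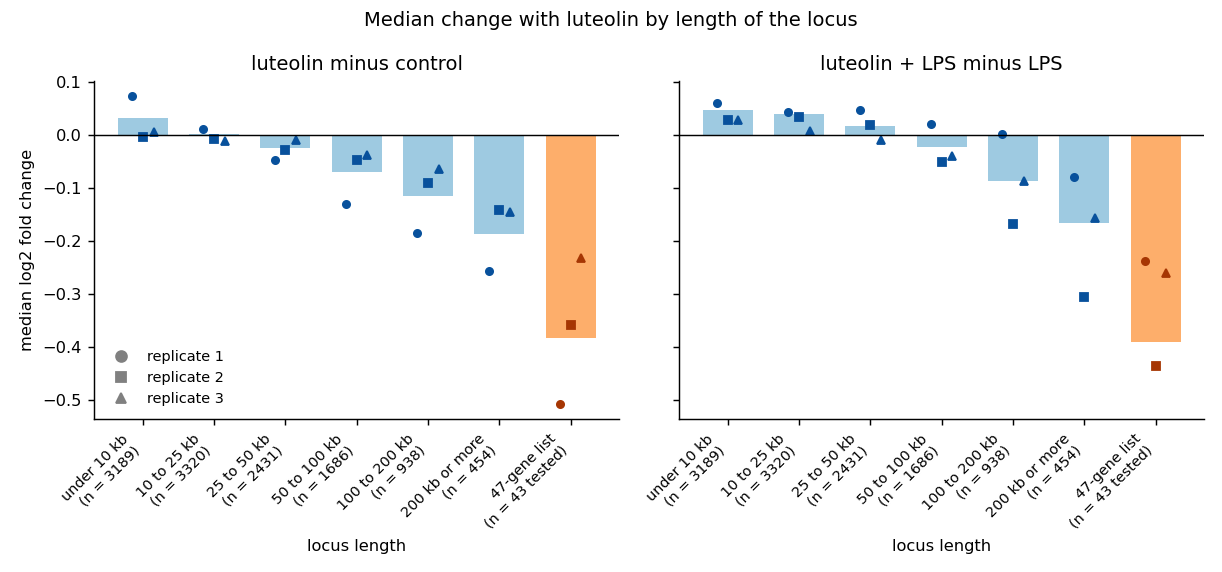
Median log2 fold change of genes in classes of locus length (blue bars) and of the 43 tested genes of the list (orange bars), luteolin minus control on the left and luteolin + LPS minus LPS on the right. Symbols are the medians of the differences in single replicates, and the bars are medians of the fitted fold changes. The medians are lower in longer classes in both states, and those of the list are -0.38 and -0.39.

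One array bears on these values. Control replicate 1 had the highest ratio of 3′ to 5′ signal of the 12 arrays in the control probe sets of Actb, Tfrc and Pcx, but not in those of Gapdh. The log2 ratio there was 0.45 for Actb, against 0.13 to 0.32 on the other 11 arrays, and 1.41 for Pcx, against values under 1 on the others. For Tfrc it was 1.83, against 0.83 to 1.06, with a 5′ signal of 46.7, under 50. The median of the 43 long genes on it lay 0.32 above the control mean, and on control replicates 2 and 3 at -0.11 and -0.22. On the luteolin arrays it lay at -0.20, -0.38 and -0.48 for replicates 1 to 3. Without control replicate 1, the median difference of the 43 genes was -0.19 in resting cells with 33 below 0, and the median main effect was -0.25 with 36 below 0. The other genes of like signal then had medians of -0.04 and -0.01. In resting cells the other genes of 200 kb or more had a median of -0.08 without this array, against -0.17 with it. In LPS-treated cells, which do not use this array, the difference was -0.39.

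No gene's response to luteolin was shown to differ between the states. The interaction, the difference in LPS-treated cells minus that in resting cells, had a median of 0.07 over the 43 genes, limma called 0 of them, and 2 had an unadjusted p under 0.05 (3.15% of all genes). These were Atxn1, with a difference of -0.04 in resting and -0.47 in LPS-treated cells, and Mad1l1, both at an adjusted p of 0.999. Their intervals are wide with 3 arrays a group, so that equal responses are not shown.

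The effect of LPS alone on these genes was compared with control. The median difference between LPS and control was -0.11 in the 43 genes and -0.10 in the 6592 other genes of like signal. Of the 43 genes 28 lay below 0, against 62.8% of the genes of like signal and 54.9% of all genes. Without control replicate 1 the median was 0.06 with 15 below 0, and it was 0.06 in the other genes of 200 kb or more and -0.08 in those of like signal. Of the 42 genes with a mean of 50 over all arrays, 1 fell with LPS (2.22% of all genes fell), or 3 with the block (6.78% of all genes). Nfia, a transcription factor of glial development, had signals of 132, 171 and 131 with LPS, against 308, 227 and 216 in control. It had 153, 185 and 151 with luteolin + LPS and 262, 237.5 and 250.3 with luteolin. The LPS arrays lay below all control arrays, and its difference was -0.78 (SE 0.16, adjusted p = 0.0226). Arhgap15, which had to differ here since it was tested only through its control signal, had a difference of -1.19 (adjusted p = 0.0402), or -0.57 with arrays under 50 set to 50, and all its LPS arrays were under 50. With Arhgap15 the count was 2, or 4 with the block. The count of 2 was 0 without control replicate 1, control replicate 2 or LPS replicate 1, and 1 without control replicate 3, any array of luteolin alone or LPS replicate 3. It was 0 when only LPS and control arrays were fitted or a gene's probe sets were averaged. The shares of all genes called in these alternatives are not given, so the changes in count may not be particular to these genes. Both contrasts with control share its arrays.

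Lists of genes that serve the transcription of long genes were compared in the same way. Of 7 topoisomerases and enzymes that repair their links to DNA, all 7 were tested and 0 were called in the main effect in either fit, Top1 having one of 0.21 and Top2b one of -0.32 (adjusted p = 0.438 and 0.107). Of 30 genes of transcription elongation, 27 were tested, and 2 fell and 0 rose, where 1.92% of all genes fell. With the block 3 of the 27 were lower, where 6.22% of all genes were. Mllt3, a subunit of the super elongation complex, fell to a signal of 165 with luteolin, against 301 in control, and to 184 with luteolin + LPS, against 346 with LPS, with a main effect of -0.89 (SE 0.15, adjusted p = 0.0173). Its own locus spans 263 kb. Tcea1, elongation factor TFIIS, had 3703 with luteolin, against 5435 in control, and 4263 with luteolin + LPS, against 5471 with LPS, with a main effect of -0.46 (SE 0.10, adjusted p = 0.0439). The third with the block was Ell (-0.28, adjusted p = 0.0408). Of 12 RNA-binding proteins of long transcripts 9 were tested, with a median main effect of 0.23, and 0 were called. With the block Hnrnpm was higher in the main effect (0.49, adjusted p = 0.0115), where 3.89% of all genes were. In LPS-treated cells Hnrnpm (0.74, adjusted p = 0.0182) and Sfpq (1.07, adjusted p = 0.0478) were higher with the block, where 1.95% of all genes were.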

How the data were processed

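Gene expression was measured on Affymetrix 430 2.0 arrays in 12 BV-2 samples. The authors summarized the probes with the RMA algorithm (background correction, quantile normalization, median polish), and the deposited values are linear intensities, with array medians of 52.2 to 56.4. Their log2 was taken here. Of 45101 probe sets, 34958 named 1 gene through the platform annotation, with symbols brought up to date through RefSeq (GRCm38.p6), which also gave locus lengths. RefSeq spans include predicted transcripts. The brightest probe set stood for each of 18194 genes, and 6123 genes under a geometric mean of 50 in all conditions were left out. Limma 3.58.1 (R 4.3.3) was run on all 12 arrays with a mean for each condition, after being tested on simulated data. Benjamini-Hochberg adjustment ran over 12071 genes, and the threshold was 0.05. The number of arrays limits the precision.

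The labels carry replicate numbers, and arrays of the same number deviated together from the group means (r of 0.101 to 0.591 in 18 pairs, median 0.42, and -0.29 for different numbers), so a blocked fit, with replicate number as a term, is given where it changes a call. The genes and lists were chosen with earlier results of these data known. Named were the genes called in a luteolin contrast in either fit (up to 12), the 5 highest and 5 lowest, 2 per role group and called genes of 3 lists for transcription of long genes. Others were named to account for every gene. Alternatives were other blocks, filters, probe set rules, normalization, pseudocount, weights and single arrays left out. A filter on the mean of all arrays and a floor of 50 were added after the data had been seen. Plots used matplotlib 3.10.9 under Python 3.11.15. The methods' program for single probes was not used here.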

Additional observations from a re-analysis of the deposited data

How the results depend on the processing

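Of 224 alternatives to the values that answer a comparison, 183 left them in place and 41 moved them. A count within a set fold of the main one, or a median moving by less than the spread between replicates, was taken as in place. The 183 include a limit to loci of 200 kb or more, which could change nothing, as all listed genes with a probe set span at least 205 kb. They also include the interaction, where no listed gene was called in any setting. The members' median luteolin main effect moved by less than the spread between replicates in all of its alternatives (-0.43 to -0.25 with single arrays left out). With the replicate block, the genes called lower were 20 in the main effect (6 without it), 8 in LPS-treated cells (0), 1 in resting cells (0) and 4 in LPS versus control (2), and it changed no call in the interaction. With replicate number as a random block they were 16, 5, 1 and 4, and with array weights 15, 4, 9 and 5. The shares of all genes called are not given for these settings or for those that follow in this paragraph. The counts therefore do not set the listed genes apart from other genes. Averaging all probe sets of a gene gave 3 calls in the main effect, 0 in LPS versus control and a median of -0.27 in LPS-treated cells (main -0.39). In LPS-treated cells, no filter and log2 of the value plus 16 gave 1 call each. In LPS versus control, a minimum of 100 gave 1 call, the groups compared alone 0, and a mean of 50 over all arrays, chosen after seeing the data, 1. With single arrays left out, calls ranged from 2 to 8 in the main effect, 0 to 1 in LPS-treated cells and 0 to 3 in LPS versus control, and the median in resting cells from -0.44 to -0.19 and in LPS-treated cells from -0.49 to -0.31. The median of all genes of 200 kb or more (-0.19) was -0.016 with no filter, -0.26 with a minimum of 100 and -0.22 to -0.14 with single arrays left out.

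Dock2 was 0.0070 (adjusted p = 0.979) with only plain probe sets, whose names carry no letter for shared sequence. When probe sets were averaged, Nfia was -0.044 and Foxp1 -0.067. With single arrays left out, Foxp1 lay between -0.061 and 0.14 and Mad1l1 between -0.041 and 0.085, and Mad1l1 was -0.075 with array weights. Among the 6 called genes, leaving out 1 of the 12 arrays ended the call of Arhgap15 in 9 cases (all but replicate 1 of control, LPS and luteolin + LPS), of Uvrag in 8 (all but LPS replicates 1 and 3 and luteolin + LPS replicates 1 and 3), of Vps13b in 6 (replicate 2 of each condition and replicate 3 of luteolin and LPS) and of Cdkal1 in 1 (luteolin replicate 3), with adjusted p-values of at most 0.0881. Tbc1d5 and Dock2 were called in all 12.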
